A study of Mus musculus with 8 samples.

Results

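The 10 genes described here encode neutrophil granule proteins and late neutrophil proteins, and they were chosen by symbol from the gene count table of cultured mouse marrow cells. They comprise 4 genes of the primary granule (Mpo, Elane, Prtn3 and Ctsg), 4 of the secondary granule (Ltf, Camp, Ngp and Lcn2) and 2 late genes (S100a8 and S100a9). All 10 were found among the 24062 genes of the table, and all 10 were among the 13197 that passed the filter on low counts. The rule that selects them uses no measured value.

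RNA was sequenced from cells that the study calls immature myeloid cells, marrow cells of 2-month-old C57BL/6 mice filtered and kept for 3 days with 40 ng per mL of the macrophage growth factor M-CSF. PARP1 WT mice carried PARP1 flox/flox without Cre, and their PARP1CKO littermates carried PARP1 flox/flox with lysozyme-Cre. PARP2 WT mice carried PARP2 flox/flox without Cre, and PARP2CKO littermates carried PARP2 flox/flox with lysozyme-Cre. Each of the 4 groups had 2 libraries. Cre was driven from the lysozyme gene in myeloid cells, no group carried Cre without a floxed gene, and every comparison of CKO with WT therefore also compares Cre with no Cre. The cells were not sorted before lysis, so each value is an average over the whole culture, and in such bulk RNA fewer granulocytes and less RNA per granulocyte cannot be told apart.

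Neutrophils make their granules in order as they mature in the marrow. Primary granules, filled with myeloperoxidase and serine proteases, form in promyelocytes. Secondary granules, with lactoferrin and other antimicrobial proteins, form in myelocytes and metamyelocytes, and the mRNA of each class is largely confined to its own stage. The calcium-binding proteins S100A8 and S100A9 are the most abundant cytosolic proteins of mature neutrophils and are also made by monocytes.

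Total counts per library ranged from 37852450 to 61845125, and levels are given as CPM, the count scaled to a common library total and corrected by TMM factors of 0.965 to 1.03. The 10 genes together took 0.283% to 0.369% of the counts of a library. The lowest count of any of them in any library was 801, for Ctsg in PARP1 WT replicate 1. Parp1 was at 202 and 211 CPM in PARP1 WT and at 63.2 and 59.1 CPM in PARP1CKO. Parp2 was at 48.2 and 48.3 CPM in PARP2 WT and at 25.8 and 25.6 CPM in PARP2CKO. Parp1 differed between the PARP2 WT replicates, at 251 and 155 CPM, beside 263 and 264 CPM in PARP2CKO. The samples are labelled as myeloid cells, and 10 macrophage markers summed to between 18190 and 25820 CPM, of which Gpnmb gave 13350 to 20080 CPM. Neutrophil markers summed to 246 to 375 CPM over 10 genes. Among the genes of late neutrophils, Stfa1, Stfa2, Stfa3 and BC100530 had between 0 and 3 counts in every library. Others were well above that, such as Csf3r at 61.9 to 94.4 CPM, Cxcr2 at 10.5 to 24.6 CPM and Retnlg at 7.27 to 20.0 CPM. Stfa2l1 was at 0.235 to 1.03 CPM. Ly6g was not analysed here.

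Regulatory sequence before the start of these genes is shown first. Its part in their levels was not tested. The sequences are from RefSeq on GRCm38.p6, which has the coordinates of mm10, and all 10 genes had an entry. Each is written 5′ to 3′ on the strand of the gene, begins 250 bases before the RefSeq start and stops before the first base of any coding transcript that starts within those bases. Capitals mark matches to GAGGAA, a box for the myeloid factor PU.1, to TTGCNNAA, a form of the C/EBP site, or to TGTGGT, the core of the RUNX site, on either strand. The primary granule genes are shown to compare the box that their 4 promoters share.
Mpo (chr11:87793534-87793580, plus strand): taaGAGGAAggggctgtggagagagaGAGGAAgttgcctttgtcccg
Elane (chr10:79886062-79886246, plus strand): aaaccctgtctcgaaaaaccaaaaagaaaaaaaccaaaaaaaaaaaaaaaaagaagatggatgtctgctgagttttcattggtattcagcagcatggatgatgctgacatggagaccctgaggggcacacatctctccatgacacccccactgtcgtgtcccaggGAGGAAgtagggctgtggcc
Prtn3 (chr10:79879417-79879613, plus strand): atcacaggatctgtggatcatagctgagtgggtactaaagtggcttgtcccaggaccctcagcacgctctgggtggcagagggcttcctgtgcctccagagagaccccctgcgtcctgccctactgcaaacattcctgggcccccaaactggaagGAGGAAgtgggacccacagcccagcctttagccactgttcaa
Ctsg (chr14:56102575-56102824, minus strand): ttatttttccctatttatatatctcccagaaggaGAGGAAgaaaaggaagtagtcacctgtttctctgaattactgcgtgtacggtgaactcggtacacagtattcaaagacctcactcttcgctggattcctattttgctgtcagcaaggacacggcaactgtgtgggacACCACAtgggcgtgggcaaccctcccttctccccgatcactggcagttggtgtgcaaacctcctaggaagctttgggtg
The secondary granule genes Ltf and Ngp are shown for the C/EBP letters, which no primary granule promoter held.
Ltf (chr9:111019042-111019270, plus strand): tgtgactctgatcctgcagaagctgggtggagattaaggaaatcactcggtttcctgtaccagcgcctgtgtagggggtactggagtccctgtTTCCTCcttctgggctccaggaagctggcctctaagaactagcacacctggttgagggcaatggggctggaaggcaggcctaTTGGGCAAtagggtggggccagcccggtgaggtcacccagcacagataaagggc
Ngp (chr9:110419558-110419746, plus strand): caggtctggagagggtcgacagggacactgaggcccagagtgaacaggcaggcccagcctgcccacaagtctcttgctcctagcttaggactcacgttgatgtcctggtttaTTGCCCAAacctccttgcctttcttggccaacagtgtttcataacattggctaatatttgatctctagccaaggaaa

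Within the 250 bases before the start, GAGGAA on either strand was present in 4 of the 4 primary granule genes, in 2 of the 4 secondary granule genes and in 1 of the 2 late genes, against 23.3% of all 32851 mouse promoters of the same length. It began at position -85 in Elane and at position -95 in Prtn3, counted from the RefSeq start. Mpo held it at positions -247 and -224, and Ctsg at -216. TTGCNNAA was present in 0 of the 4 primary granule genes, in 3 of the 4 secondary granule genes (Ltf, Ngp and Lcn2) and in S100a9, against 9.56% of promoters. Ngp held it at positions -138 and -11, the latter beyond the stretch shown. TGTGGT was present in Ctsg and S100a9, against 14.0% of promoters. The letters were chosen after the sequences had been seen, a match is not a binding site, and binding was not measured.

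The genes lie on 6 chromosomes, in part as neighbours. Elane (chr10:79886247-79888215) and Prtn3 (chr10:79874476-79883174), which encode related serine proteases, lie 3072 bases apart on the plus strand. S100a8 (chr3:90668978-90670035) and S100a9 (chr3:90692632-90695721), whose products pair in calprotectin, lie 22596 bases apart on opposite strands. The secondary granule genes Ltf (chr9:111019271-111042767), Camp (chr9:109847379-109849617) and Ngp (chr9:110419747-110423012) share chromosome 9, with at least 570129 bases between neighbours. Mpo is at chr11:87793581-87804413, Ctsg at chr14:56099881-56102574 and Lcn2 at chr2:32384633-32388252, by GENCODE M21 on mm10. All 10 are protein-coding. Mpo overlaps Gm11505 and Prtn3 overlaps Plppr3, both on the opposite strand, and the overlaps hold 6.94% and 5.06% of their 75-base stretches. Whether counting used the strand is not given in the sources used here, so reads from those stretches cannot be assigned with certainty. No 75-base stretch of the other 8 genes occurred in another gene.

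Per kilobase of exon, the late genes and Ngp led the 10. Mean levels over the 8 libraries were 1940 CPM per kb for S100a9, 775 for the antimicrobial Ngp and 564 for S100a8. Camp, which encodes the cathelicidin peptide, followed at 123 CPM per kb and Ltf, the lactoferrin gene, at 112. Lcn2, which encodes the siderophore-binding lipocalin 2, was at 64.8 CPM per kb and Mpo at 62.5. The 3 serine protease genes closed the order, with Elane at 53.2, Ctsg at 22.3 and Prtn3 at 21.5 CPM per kb. The ranges over the 8 libraries overlapped for several neighbours in this order. These were Ngp (631 to 895 CPM per kb) and S100a8 (452 to 654), Camp (98.0 to 145) and Ltf (99.5 to 132), and also Ctsg and Prtn3. Lcn2 (55.1 to 73.8), Mpo (48.5 to 77.0) and Elane (41.9 to 63.9) overlapped as well. Within each library Ngp was nonetheless above S100a8, and Mpo above Elane. The order of Camp and Ltf, of Ctsg and Prtn3, and of Lcn2 with Mpo or Elane changed between libraries. The means do not order these pairs.

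**Figure D1:**
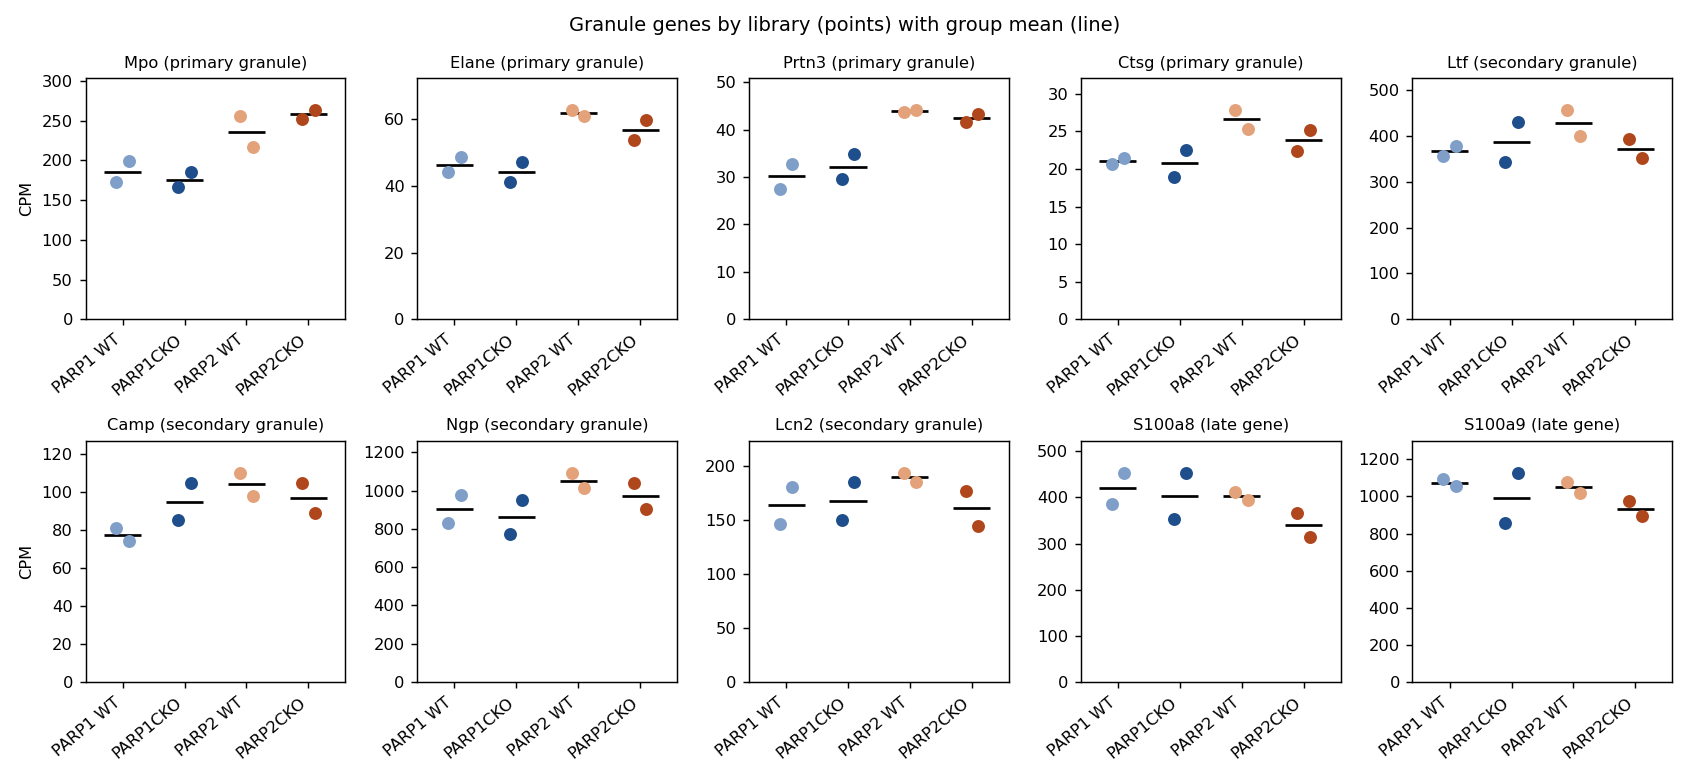
Level of each granule gene in CPM (vertical axes, from 0) in the 4 groups, with a point for each of the 2 libraries and a line at the group mean. Mpo, Elane and Prtn3 lay higher in all 4 libraries of the PARP2 line than in any of the PARP1 line, while S100a8 and S100a9 overlapped between the lines.

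The primary granule genes were at higher levels in the PARP2 line, and 3 of the 4 separated the 8 libraries by line. Mpo, the myeloperoxidase gene, had levels of 172 and 199 CPM (PARP1 WT), 166 and 185 CPM (PARP1CKO), 255 and 217 CPM (PARP2 WT) and 252 and 264 CPM (PARP2CKO). Elane, which encodes neutrophil elastase, had levels of 44.3 and 48.6 CPM (PARP1 WT), 41.2 and 47.4 CPM (PARP1CKO), 62.9 and 61.1 CPM (PARP2 WT) and 53.7 and 59.8 CPM (PARP2CKO). In both genes every library of the PARP2 line was above every library of the PARP1 line, and PARP1 WT overlapped PARP1CKO. Prtn3, the proteinase 3 gene, had levels of 27.5 and 32.9 CPM (PARP1 WT), 29.5 and 34.8 CPM (PARP1CKO), 43.7 and 44.2 CPM (PARP2 WT) and 41.7 and 43.4 CPM (PARP2CKO). Ctsg, which encodes cathepsin G, had levels of 20.7 and 21.5 CPM (PARP1 WT), 19.0 and 22.5 CPM (PARP1CKO), 27.9 and 25.4 CPM (PARP2 WT) and 22.5 and 25.2 CPM (PARP2CKO). Prtn3 showed the same separation as Mpo and Elane. Ctsg missed it by a small margin, since PARP2CKO replicate 1 (22.46 CPM) lay just below PARP1CKO replicate 2 (22.52 CPM).

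Of the secondary granule genes, none separated the lines. Ltf had levels of 355 and 378 CPM (PARP1 WT), 343 and 430 CPM (PARP1CKO), 456 and 399 CPM (PARP2 WT) and 392 and 352 CPM (PARP2CKO). Camp had levels of 80.8 and 74.2 CPM (PARP1 WT), 85.2 and 104 CPM (PARP1CKO), 110 and 97.6 CPM (PARP2 WT) and 105 and 88.9 CPM (PARP2CKO). PARP1 WT was the lowest group for Camp, below all 6 other libraries, and Ltf overlapped between all neighbouring groups. Ngp had levels of 829 and 977 CPM (PARP1 WT), 771 and 950 CPM (PARP1CKO), 1094 and 1011 CPM (PARP2 WT) and 1038 and 906 CPM (PARP2CKO). Lcn2 had levels of 146 and 180 CPM (PARP1 WT), 150 and 185 CPM (PARP1CKO), 194 and 185 CPM (PARP2 WT) and 176 and 144 CPM (PARP2CKO). PARP2 WT had the highest mean for each of the 4 genes, and for Ngp and Lcn2 all neighbours in the order of groups overlapped.

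The late genes had their lowest group mean in PARP2CKO and overlapped between the lines. S100a8 had levels of 385 and 454 CPM (PARP1 WT), 352 and 452 CPM (PARP1CKO), 411 and 395 CPM (PARP2 WT) and 367 and 314 CPM (PARP2CKO). S100a9 had levels of 1093 and 1054 CPM (PARP1 WT), 858 and 1129 CPM (PARP1CKO), 1077 and 1021 CPM (PARP2 WT) and 977 and 892 CPM (PARP2CKO). By group mean both ran from PARP1 WT through PARP2 WT and PARP1CKO to PARP2CKO, but all neighbours in that order overlapped.

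In PARP1CKO none of the 10 genes was called. With edgeR's quasi-likelihood method, and p-values adjusted by Benjamini and Hochberg over all 13197 genes, 0 of the 10 passed an adjusted p of 0.05, against a background of 0.106% of genes. The likelihood-ratio test also called 0 of the 10, against 1.11% of genes, and DESeq2 called 0 of the 10, against 0.754%. Camp had an unadjusted p under 0.05, at 0.29 on the log2 scale (standard error 0.11, adjusted p = 0.382), and it was the 1 gene of the 10 whose groups did not overlap. The PARP1CKO libraries were both above the PARP1 WT libraries in 21% of all genes. The estimate of Camp was 0.14 without PARP1CKO replicate 2 and 0.23 without PARP1 WT replicate 2, and its unadjusted p was then above 0.05. An unadjusted p under 0.05 was found for 11.3% of all genes. The other 9 lay between -0.11 (S100a9) and 0.09 (Prtn3) on the log2 scale, with adjusted p-values from 0.719 to 0.940 in the quasi-likelihood test. The median over the 10 was -0.04, against 0.01 over all genes. For Mpo the 95% interval of the log2 fold change was -0.29 to 0.13, and for S100a9 it was -0.36 to 0.13. The estimates of these 9 genes changed sign when a library was left out, and the values are given with the processing alternatives.

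In PARP2CKO the estimates of 9 of the 10 genes were below 0, against 50.7% of all genes, and none passed the test. The quasi-likelihood test called 0 of the 10 at an adjusted p of 0.05, against 0.053% of all genes, as did the likelihood-ratio test (0.296% of genes) and DESeq2 (0.205%). An unadjusted p under 0.05 was found for 0 of the 10, against 4.83% of all genes. Both PARP2CKO libraries were below both PARP2 WT libraries in 7 of the 10 (Elane, Prtn3, Ctsg, Ltf, Lcn2, S100a8 and S100a9), against 18.8% of all genes. The 10 genes share libraries and cells, so these 7 are not independent observations. S100a8 had the lowest estimate, at -0.24 on the log2 scale (standard error 0.122, 95% interval -0.52 to 0.03, adjusted p = 0.954). Lcn2 was at -0.24, Ltf at -0.20, S100a9 at -0.17 and Ctsg at -0.16. Mpo alone had a positive estimate, 0.13 (95% interval -0.08 to 0.34), and the estimate of Camp (-0.10) turned to 0.0125 without PARP2CKO replicate 2. By class the medians were -0.09 for the primary granule genes, -0.16 for the secondary granule genes and -0.20 for the late genes, and the median over all genes was -0.0014.

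Cell type markers also had shifted estimates in PARP2CKO, and the quasi-likelihood test called 0 of those named here. Of 8 neutrophil markers tested, 6 were lower without overlap, against 18.8% of all genes, with a median of -0.32. An unadjusted p under 0.05 was found for 4 of the 8 (Retnlg, Mmp9, Cxcr2 and Cd177), against 4.83% of all genes. The likelihood-ratio test called 2 of the 8, against 0.296% of all genes. The sum of the neutrophil markers was 287 to 297 CPM in PARP2 WT and 246 to 294 CPM in PARP2CKO, which overlap. Among monocyte markers, Ly6c2 was at 72.2 and 71.9 CPM in PARP2 WT against 61.0 and 60.7 CPM in PARP2CKO (log2 fold change -0.24, adjusted p = 0.704). Ly6c1 was at -0.46, Cx3cr1 at -0.24, Ccr2 at -0.07, F13a1 at -0.01 and Fn1 at 0.10. Eosinophil markers were lower in 6 of 9 (median -0.37), with sums of 16.1 to 25.8 CPM and 15.8 to 16.3 CPM. Basophil and mast cell markers were lower in 6 of 6 tested (median -0.36), with sums of 8.84 to 12.7 CPM and 6.22 to 7.77 CPM. Of 10 macrophage markers 7 had higher estimates, with a median of 0.08. The macrophage sum, 20550 to 22730 CPM in PARP2 WT and 22850 to 25820 CPM in PARP2CKO, was mostly Gpnmb, whose levels overlapped (17480 and 15010 CPM against 20080 and 17330 CPM). The part of these markers in the estimates of the granule genes was not tested.

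Whether the deletions differed in effect was tested as an interaction. The quasi-likelihood test called 0 of the 10, against 0.0152% of all genes, the likelihood-ratio test called 0, against 0.546%, and DESeq2 called 0, against 0.362%. Camp had the lowest estimate, -0.39 on the log2 scale (standard error 0.154, adjusted p = 0.616), and was the 1 gene of the 10 with an unadjusted p under 0.05, against 7.69% of all genes. Its interval ran from -0.74 to -0.04, and the unadjusted p was above 0.05 without PARP1CKO replicate 2 (estimate -0.24), PARP1 WT replicate 2 (-0.33), PARP2 WT replicate 1 or PARP2CKO replicate 2. The difference for Mpo was 0.21 (95% interval -0.08 to 0.51), and the other 8 lay between -0.28 and -0.04.

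**Figure D2:**
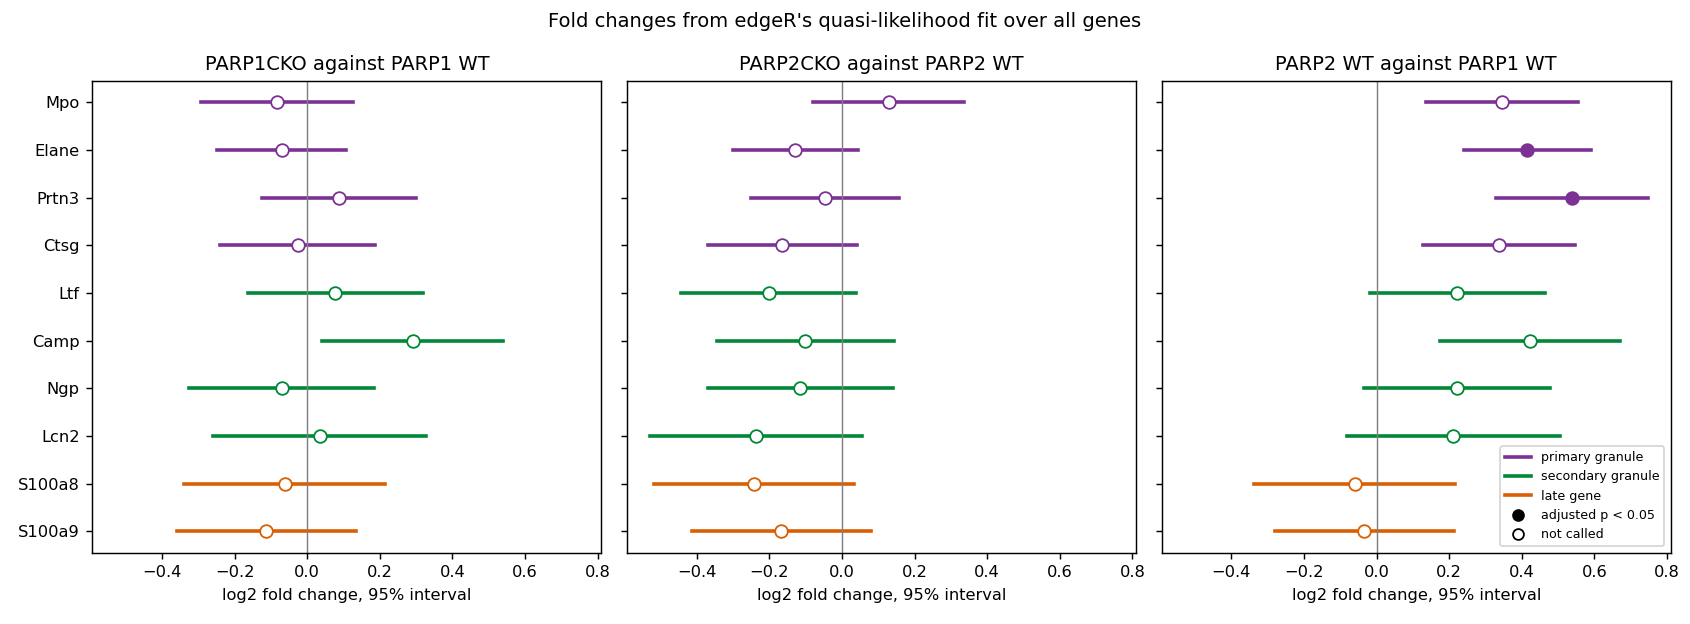
Log2 fold change of each granule gene (horizontal axes) with its 95% interval in 3 comparisons, from the fit over all genes. Filled points mark an adjusted p under 0.05, which Elane (0.42) and Prtn3 (0.54) reached in PARP2 WT against PARP1 WT and no gene reached in either deletion.

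The Cre-free groups were compared to see how the genes differed between the floxed lines without a deletion. Elane and Prtn3 were higher in PARP2 WT than in PARP1 WT. The log2 fold change of Prtn3 was 0.54 (1.45-fold, standard error 0.0921, quasi-likelihood adjusted p = 0.0197) and that of Elane 0.42 (1.33-fold, standard error 0.0772, adjusted p = 0.0270). With 2 of 10 called higher, the background was 1.92% of genes called higher and 3.16% called in either direction. The likelihood-ratio test called 5 of the 10, against 6.9% of genes, and DESeq2 called 4, against 4.43%. Mpo was at 0.34 (adjusted p = 0.0919), Ctsg at 0.34 (adjusted p = 0.0970) and Camp at 0.42 (adjusted p = 0.0805), and these 3 missed the threshold. Ltf, Ngp and Lcn2 lay between 0.21 and 0.22, while S100a8 was at -0.06 and S100a9 at -0.03. The groups did not overlap in 8 of the 10, all of them higher in PARP2 WT, against 26.7% of genes. Both calls were lost without PARP1 WT replicate 1, PARP2 WT replicate 1 or PARP2 WT replicate 2, with adjusted p-values of 0.0756 to 0.111 for Prtn3 and 0.0949 to 0.183 for Elane. Scaling by library size only also ended the call of Elane (adjusted p = 0.0510). This comparison uses the same WT libraries as both deletion comparisons.

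All 4 primary granule genes were higher in the PARP2 line when both groups of each line entered the comparison, which was added after the levels had been seen. The mean of PARP2 WT and PARP2CKO exceeded the mean of PARP1 WT and PARP1CKO by 0.47 on the log2 scale for Prtn3 (standard error 0.0649, quasi-likelihood adjusted p = 0.00231). Mpo was higher by 0.45 (standard error 0.0653, adjusted p = 0.00288) and Elane by 0.39 (standard error 0.0546, adjusted p = 0.00258). For Ctsg the difference was 0.27 (standard error 0.0655, adjusted p = 0.0249). In this comparison 16.4% of all genes were called, 8.36% higher and 8.04% lower. The lines did not overlap for Mpo, Elane and Prtn3, and 10.5% of all genes were higher in this way. These 3 genes were called under all 15 alternatives, including the omission of each library. Ctsg lost its call without PARP1 WT replicate 1, PARP2 WT replicate 1 or PARP2CKO replicate 2 (adjusted p of 0.0739 to 0.0837) and with scaling by library size only (adjusted p = 0.0595). Mouse line, litter and preparation cannot be told apart here.

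Secondary granule and late genes did not pass in the same comparison of lines. Camp was at 0.23 (adjusted p = 0.0756) and Ngp at 0.20 (adjusted p = 0.122), and Ltf and Lcn2 were both at 0.08. S100a8 was at -0.15 (95% interval -0.35 to 0.05, adjusted p = 0.270) and S100a9 at -0.06 (95% interval -0.24 to 0.11). Median differences fell in the order of the classes, from 0.42 for primary granule genes to 0.14 for secondary granule genes and -0.11 for late genes, with -0.00017 over all genes. The difference between classes was not tested. Camp passed with DESeq2 (adjusted p = 0.0112), the likelihood-ratio test (adjusted p = 0.0294) and no filter on low counts (adjusted p = 0.0117), and Ngp with no filter (adjusted p = 0.0311). Both also passed when PARP1CKO replicate 2 was left out (adjusted p = 0.0244 and 0.0390), and S100a9 passed as lower without PARP1CKO replicate 1 (log2 difference -0.15, adjusted p = 0.0466).

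**Figure D3:**
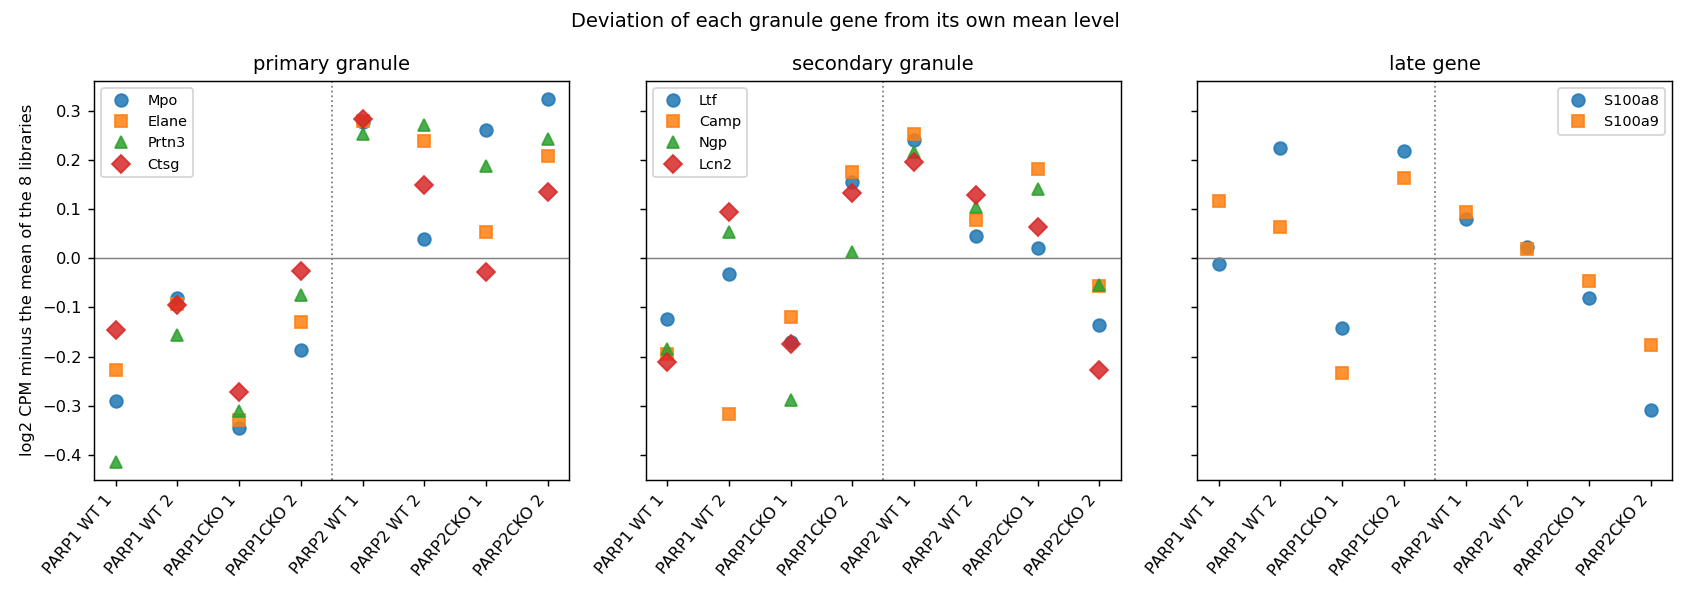
Deviation of each gene's log2 CPM from its mean over the 8 libraries (vertical axis), by class (panels) and library (horizontal axis), with a dotted line between the PARP1 line on the left and the PARP2 line on the right. Primary granule genes lay below 0 in all 4 libraries of the PARP1 line, and late genes were lowest in PARP2CKO replicate 2 (-0.31 for S100a8) and PARP1CKO replicate 1 (-0.23 for S100a9).

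Summed over the class, primary granule genes were at 265 and 302 CPM (PARP1 WT), 256 and 290 CPM (PARP1CKO), 390 and 347 CPM (PARP2 WT) and 370 and 392 CPM (PARP2CKO). Late genes summed to 1479 and 1508 CPM (PARP1 WT), 1210 and 1581 CPM (PARP1CKO), 1487 and 1416 CPM (PARP2 WT) and 1344 and 1206 CPM (PARP2CKO). The ratio of late to primary granule genes was thus 5.58 and 4.99 (PARP1 WT), 4.73 and 5.45 (PARP1CKO), 3.82 and 4.08 (PARP2 WT) and 3.63 and 3.08 (PARP2CKO). All 4 libraries of the PARP1 line were above all 4 of the PARP2 line, and both PARP2CKO libraries were below both PARP2 WT libraries. The ratio of secondary to primary granule genes ran from 5.28 to 5.76 in the PARP1 line and from 3.81 to 4.87 in the PARP2 line. That of late to secondary granule genes ran from 0.897 to 1.05 and from 0.785 to 0.836. In all 3 ratios the numerator belongs to the later stage and the lines did not overlap. Each class sum came largely from 1 gene. In PARP1 WT replicate 1, Mpo gave 172 of 265 CPM, Ngp 829 of 1411 CPM and S100a9 1093 of 1479 CPM. These ratios are a description, since they combine genes whose levels were already known to differ between the lines.

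**Figure D4:**
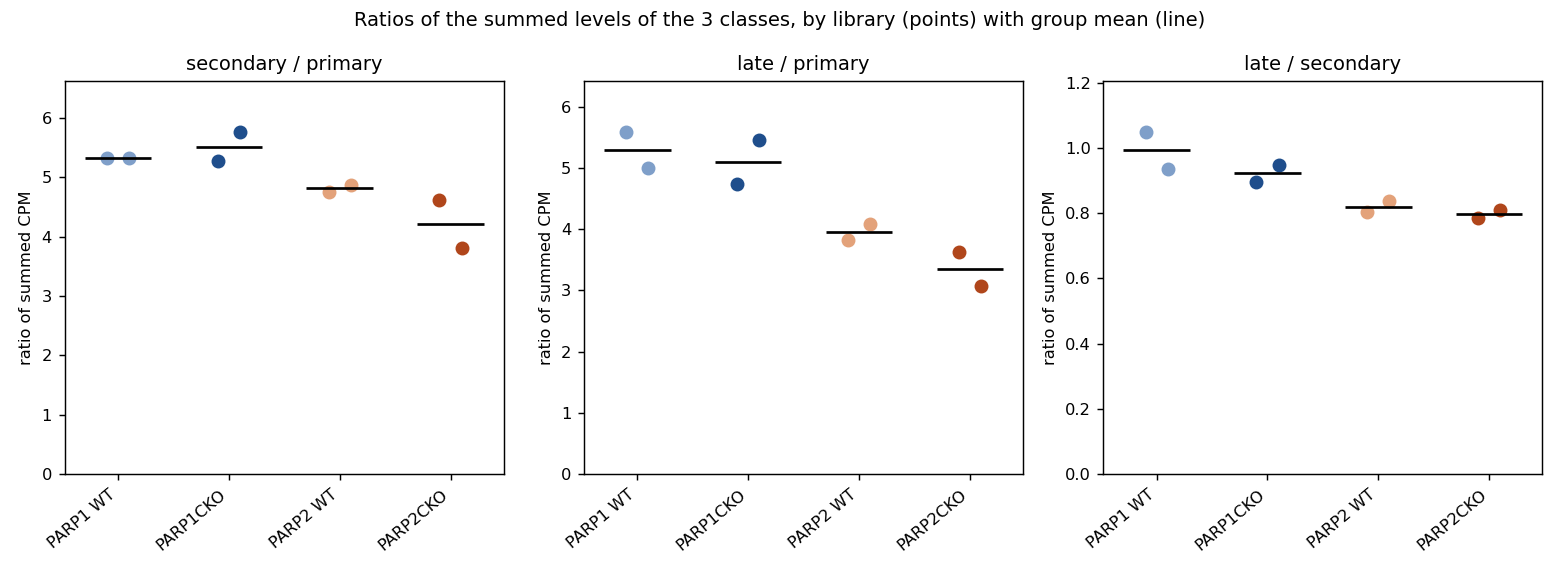
Ratio of the summed CPM of secondary to primary, late to primary and late to secondary granule genes (vertical axes, from 0) by group, with a point for each library and a line at the group mean. In each panel the lowest library of the PARP1 line was above the highest of the PARP2 line, as in late to primary with 4.73 against 4.08.

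Replicates of a group differed too, and the direction split by class in PARP2CKO. In PARP1 WT 8 of the 10 genes were higher in replicate 2, and Camp (-0.12) and S100a9 (-0.05) were lower. In PARP1CKO all 10 genes were higher in replicate 2 than in replicate 1, by 0.16 (Mpo) to 0.40 (S100a9) on the log2 scale. In PARP2CKO the 4 primary granule genes were higher in replicate 2, by 0.06 to 0.16, while the 4 secondary granule and 2 late genes were lower, by -0.13 (S100a9) to -0.29 (Lcn2). In PARP2 WT 9 of the 10 were lower in replicate 2, and Prtn3 differed by 0.02. Lcn2, for example, differed by -0.29 between the PARP2CKO replicates, beside an estimate of -0.24 between PARP2CKO and PARP2 WT.

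Over the 8 libraries the log2 CPM of primary granule genes correlated with each other at Pearson's r of 0.80 to 0.96 (6 pairs) and with the late genes at -0.31 to 0.24 (8 pairs). Secondary granule genes correlated with each other at 0.56 to 0.89 (6 pairs), with primary granule genes at 0.28 to 0.78 (16 pairs) and with late genes at 0.04 to 0.73 (8 pairs). S100a8 and S100a9 correlated at 0.83. The points share library, line and depth, and the coefficients are a description of these 8 libraries.

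Of the 13187 other genes that passed the filter, those most like the mean of the primary granule genes over the 8 libraries were Dach1 (r = 0.99), Acpp, Vsig10, Ddhd1 and Zfp217 (0.98 each). Dach1 ran from 5.59 to 9.15 CPM. Fcnb, which encodes the ficolin of granulocyte precursors, ranked 7 (r = 0.98), and Gfi1, a repressor needed for neutrophil development, ranked 33 (r = 0.95). Closest to the secondary granule genes were Higd2a (r = 0.97), Ramp1, Ltb4r1, Sept5 and Zfp385c, and closest to the late genes were Sash3 (r = 0.96), Cd33, Mcemp1, Chil1 and Clint1. An r above 0.9 was reached by 128 genes for the primary granule class, 11 for the secondary and 16 for the late class.

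Other genes of granules and of neutrophil maturation were counted by list in the comparison of the lines, where 8.36% of all genes were called higher and 8.04% lower. Of 7 further primary granule genes tested, Ms4a3 (0.47, adjusted p = 0.0132) and Lyz2 (0.72, adjusted p = 0.000937) were called higher, and Cst7 (-0.28) and Srgn (-0.24) lower. Lyz2 is the gene whose locus carries Cre in the CKO groups, and it was at 3495 to 10800 CPM over the libraries. The study describes this Cre as acting across the myeloid lineage, so Lyz2 is not particular to granulocytes. Of 10 further secondary granule genes, 5 were called higher and 0 lower. These 5 were Fcnb (0.89), Lyz1 (0.86), Chil3 (0.49), Cyba (0.25) and Cybb (0.23). Cyba and Cybb encode subunits of the phagocyte oxidase, which macrophages also make. Of 8 genes of tertiary granules and secretory vesicles, 3 were called higher (Adam8, Itgb2 and Slc11a1, at 0.15 to 0.34) and 3 lower. The lower genes were the gelatinase gene Mmp9 (-0.90, adjusted p = 0.000123) and the formyl peptide receptor genes Fpr1 (-0.77) and Fpr2 (-0.66).

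Among late neutrophil genes beyond the S100 genes, Retnlg, Cxcr2, Il1r2 and Csf3r were called lower in the PARP2 line and Msrb1 (0.34) higher. Retnlg, a resistin-like gene of mature neutrophils, had levels of 20.0 and 19.4 CPM (PARP1 WT), 17.5 and 18.2 CPM (PARP1CKO), 9.84 and 12.98 CPM (PARP2 WT) and 7.59 and 7.27 CPM (PARP2CKO). Its difference between the lines was -1.02 (standard error 0.0812, quasi-likelihood adjusted p = 0.000158). The chemokine receptor gene Cxcr2 differed by -0.73, Il1r2 by -0.49 and the G-CSF receptor gene Csf3r by -0.38. For these 4 lower genes all 4 libraries of the PARP1 line were above all 4 of the PARP2 line, as for 9.93% of all genes. Among 13 regulators of granulocyte formation, Cebpa (0.63), Gfi1 (0.38) and Irf8 (0.12) were called higher, and Csf3r and the proliferation marker Mki67 (-0.11) lower. Spi1, the gene of PU.1, was at 0.08 and Runx1 at -0.05, without a call. Over all genes 8.36% were called higher and 8.04% lower.

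Markers of cell types differed between the lines as well, in a comparison that called 8.36% of all genes higher and 8.04% lower. Neutrophil markers had lower estimates in the PARP2 line for 8 of the 8 tested (median -0.61), and 5 were called. Of the 8, Mmp8 (-0.0016) and Cd177 (-0.01) lay near 0. The neutrophil sum was 319 to 375 CPM in the PARP1 line and 246 to 297 CPM in the PARP2 line. The summed level of 8 B cell markers was 29.6 to 43.3 CPM in the PARP1 line and 8.18 to 11.5 CPM in the PARP2 line. Basophil and mast cell markers (8 genes) summed to 18.2 to 24.9 CPM and 6.22 to 12.7 CPM, and erythroid markers (9 genes) to 7.28 to 12.7 CPM and 3.67 to 4.63 CPM. Macrophage markers (10 genes) summed to 18190 to 21430 CPM in the PARP1 line and 20550 to 25820 CPM in the PARP2 line, with 5 of 10 called higher. Of 9 markers of granulocyte progenitors, 3 were called higher (Ms4a3, Fcnb and Gfi1) and Kit lower (-0.83). The part of these shifts in the differences of the granule genes was not tested.

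In the deletion comparisons 0 genes of the 5 pathway lists were called by the quasi-likelihood test. An unadjusted p under 0.05 was found in PARP1CKO for 3 of 7 further primary and 1 of 10 further secondary granule genes, against 11.3% of all genes, and in PARP2CKO for 2 and 3, against 4.83%. Among late neutrophil genes, Retnlg (-0.61, adjusted p = 0.371) and Cxcr2 (-0.49, adjusted p = 0.721) had an unadjusted p under 0.05 in PARP2CKO, while in PARP1CKO Retnlg was at -0.14 and Cxcr2 at 0.14. Of 8 tertiary granule and secretory vesicle genes tested, 4 had higher and 4 lower estimates in PARP2CKO. Among them Mmp9 was at -0.43 (adjusted p = 0.557) and Adam8 at 0.24 (adjusted p = 0.888). Over the 5 lists the likelihood-ratio test called 2 primary and 1 secondary granule gene in PARP1CKO, against 1.11% of all genes, and 1 gene each of the primary, secondary, tertiary and late neutrophil lists in PARP2CKO, against 0.296%. The lysozyme genes, close copies whose reads the counting could split, had lower estimates in both deletions without passing the quasi-likelihood threshold, with Lyz2 at -0.63 in PARP1CKO (adjusted p = 0.135) and -0.72 in PARP2CKO (adjusted p = 0.188), and Lyz1 at -0.62 (adjusted p = 0.0738) and -0.45 (adjusted p = 0.527).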

How the data were processed

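The authors trimmed single-end 75-base reads of total RNA with fastq-mcf, mapped them to mm10 with TopHat2 2.0.12, marked duplicates with Picard 1.127 and counted them on genes with featureCounts. They deposited the raw counts of 24062 genes in 8 libraries, the unit used here. Annotation and strand setting are not given in the sources used here. The labels call libraries of a group biological duplicates without naming mice or cultures, so p-values measure the spread between these libraries.

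Counts of genes that passed filterByExpr were scaled by TMM and tested with edgeR 4.0.16 (R 4.3.3, quasi-likelihood test, all 8 libraries, a mean per group), with Benjamini-Hochberg adjustment over 13197 genes and a threshold of 0.05. The scripts were tested on simulated data. The smallest two-sided p of an exact permutation test with 2 libraries a group is 0.333, so p-values are those of the model. Replicates differed by more than sampling noise (chi-square per gene of at least 8.56), so each library counted once. The common biological coefficient of variation was 0.055. Log2 CPM used a prior count of 2. Positions are from GENCODE M21 and promoters from RefSeq on GRCm38.p6.

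The members and gene lists were chosen with earlier results of these data known. The genes named are the 10 members, Parp1 and Parp2, genes of the lists that were called, do not overlap between groups with the largest changes, or define a cell type, and the 5 genes most like each class by Pearson's r. Lists were taken as 5 pathway lists and 9 lists of cell type markers. Wfdc21, Adgre1 and Siglecf were found under older symbols, Ly6g and Trac were not analysed here, and 1 listed gene is not reported here. Alternatives were DESeq2 1.42.0, its size factors, library size only, the likelihood-ratio test, no filter, a minimum of 1 CPM in 2 libraries, the 4 libraries of a comparison alone, a replicate block and the omission of each library. The comparison of the lines was added after the data had been seen.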

Additional observations from a re-analysis of the deposited data

How the results depend on the processing

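The count of 0 called among the 10 genes in PARP1CKO, in PARP2CKO and in the difference between the effects held under every alternative run. In PARP2 WT against PARP1 WT, 2 of the 10 were called, and the count was 4 with DESeq2, 5 with the likelihood-ratio test, 5 with no filter on low counts, 1 with library size only, and 0 to 2 with each library left out (0 without PARP1 WT replicate 1 or either PARP2 WT library). Between the lines, 4 of the 10 were called, 5 with DESeq2, 5 with the likelihood-ratio test, 6 with no filter, 3 with library size only, and 3 to 6 with each library left out. Over all genes, 14 were called in PARP1CKO, against 86 with DESeq2, 146 with the likelihood-ratio test, 101 with no filter and 1 to 34 with a library left out. For PARP2CKO the 7 called genes became 27, 39 and 26 under the same 3 settings and 6 to 19 with a library left out. For the difference between the effects 2 became 45, 72 and 61, and 1 to 16. For PARP2 WT against PARP1 WT 417 became 910 with the likelihood-ratio test and 872 with no filter, and 85 to 319 with a library left out, and for the lines 2164 became 1082 to 2327. These counts moved by more than 1.5 times with the omission of any library in PARP1CKO, any but PARP2CKO replicate 1 in PARP2CKO, any but PARP1 WT replicate 1 in the difference, any but PARP1 WT replicate 2 in PARP2 WT against PARP1 WT, and for the lines PARP1 WT replicate 1, either PARP2 WT library or PARP2CKO replicate 1. The causes of these shifts were not tested, and the omission of a library also leaves fewer samples.

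Of the estimates of single genes under an alternative, 606 kept their direction and their side of the threshold, 16 passed it, 11 no longer did and 27 changed sign. Those that changed sign did so with a library left out, and their ranges over all alternatives follow. In PARP1CKO their ranges were -0.154 to 0.0934 for Ctsg, -0.174 to 0.0262 for Elane, -0.127 to 0.193 for Lcn2, -0.0946 to 0.231 for Ltf, -0.185 to 0.0220 for Mpo, -0.229 to 0.0722 for Ngp, -0.0354 to 0.221 for Prtn3, -0.254 to 0.106 for S100a8 and -0.325 to 0.0715 for S100a9. In PARP2CKO the range was -0.225 to 0.0125 for Camp. In the difference between the effects the ranges were -0.154 to 0.0466 for Elane, -0.187 to 0.115 for Ngp, -0.348 to 0.0129 for S100a8 and -0.238 to 0.159 for S100a9. In PARP2 WT against PARP1 WT they were -0.173 to 0.0619 for S100a8 and -0.0725 to 0.00262 for S100a9, and between the lines -0.153 to 0.0448 for S100a9. A group left with 1 library was assumed to vary like the others.

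Replicate numbers did not pair the libraries. The correlation of deviations between same-numbered libraries was -0.13 for PARP1 WT with PARP1CKO and 0.15 for PARP2 WT with PARP2CKO. With the replicate block 0, 0, 0, 2 and 4 of the 10 genes were called in PARP1CKO, PARP2CKO, the difference, PARP2 WT against PARP1 WT and the lines, and over all genes 14, 6, 3, 315 and 2028. The number of libraries, 2 per group, limits the precision of every estimate.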

Other observations

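Among the monocyte markers, the PARP2 line was higher for Fn1 (log2 difference 0.87, standard error 0.0742, edgeR adjusted p = 0.000219) and F13a1 (0.63, adjusted p = 0.00561). Both genes were also close to the primary granule genes over the 8 libraries, with Pearson's r of 0.95 for Fn1 and 0.93 for F13a1. Eosinophil markers summed to 21.8 to 28.2 CPM in the PARP1 line and 15.8 to 25.8 CPM in the PARP2 line, which overlap. Of 9 tested, 3 had higher and 6 lower estimates in the PARP2 line. Prg2 (-0.65) and Il5ra (-1.62) were called lower in the PARP2 line, against 8.04% of all genes. The receptor gene Mertk was higher (0.81, adjusted p = 0.000185) among the macrophage markers.

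Serpinb1a, which encodes an inhibitor of the neutrophil serine proteases, had a lower estimate in PARP1CKO (-0.36, standard error 0.0649, edgeR adjusted p = 0.128). In PARP2CKO it was at -0.14 (adjusted p = 0.954). The difference between the effects was 0.22 (adjusted p = 0.634). Cst7, which encodes the protease inhibitor cystatin F, was at -0.28 in PARP1CKO (adjusted p = 0.279) and -0.26 in PARP2CKO (adjusted p = 0.849).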
